A study of Homo sapiens with 6 samples.

Results

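The genes of the proteasome were examined by RNA sequencing in cells labelled HepG2, a line derived from a human liver tumour, which carried a short hairpin RNA (shRNA) against the transcription factor STAT3 or a control shRNA. Members were all rows of the gene count table whose gene name is PSMA, PSMB, PSMC, PSMD, PSME, PSMF or PSMG followed by a number, which gave 47 of 27452 rows. There were 3 STAT3 shRNA libraries and 3 control shRNA libraries, all from total RNA of cells grown in medium with fetal bovine serum. The labels do not say whether the numbered libraries are separate cultures, clones or shRNA sequences, so p-values speak of library-to-library spread alone, and that spread may be technical, while any other difference between the constructed lines cannot be told apart from the shRNA.

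The proteasome is the protease complex that degrades proteins tagged with ubiquitin in the nucleus and the cytosol. Its barrel-shaped core is made of alpha rings, which gate the entry, and beta rings, which hold the proteolytic sites. A regulatory cap binds the tagged protein, removes the ubiquitin, unfolds the chain with a ring of ATPases and threads it into the core. In cells exposed to interferon, the catalytic beta subunits are replaced by the immunoproteasome subunits PSMB8, PSMB9 and PSMB10, which alter the peptides made for display on MHC class I. Other activators dock on the core in place of the cap, and dedicated chaperones, which are not part of the finished particle, assemble it.

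Total counts were 17694642 to 25862027 in the STAT3 shRNA libraries and 17408543 to 20133064 in the control libraries. STAT3 lay at 34.8, 35.8 and 36.2 CPM (counts scaled to a fixed library total, after correction for composition) in the STAT3 shRNA libraries and at 261, 246 and 246 CPM with control shRNA, so each library carried the STAT3 level of its label. Of the liver markers of the labelled line, ALB, APOA1 and APOA2 were at or near the floor, with at most 3 counts in any library, while HNF4A and TF were above it. ALB had 0, 0 and 3 counts in the STAT3 shRNA libraries and 2, 0 and 0 in the control libraries. HNF4A lay at 7.21, 7.55 and 4.96 CPM with STAT3 shRNA and at 1.46, 1.28 and 1.79 CPM with control shRNA, and TF at 0.436 to 1.08 CPM with STAT3 shRNA and 0.583 to 2.16 CPM with control shRNA. These 5 of 10 listed liver genes, the ones with a row, summed to 5.66 to 8.73 CPM in STAT3 shRNA libraries and 2.27 to 3.95 CPM in control libraries. The low ALB, APOA1 and APOA2 counts go against the label HepG2, and the identity of the cells was not tested. The keratins KRT5 and KRT14 were at 0 counts in every STAT3 shRNA library and at no more than 1 count in any control library, and TP63, another squamous marker, was at no more than 0.381 CPM in STAT3 shRNA libraries and 0.117 CPM in control libraries. The mesenchymal filament VIM lay at 833 ± 33.3 and 927 ± 23.4 CPM, COL1A1, a fibroblast collagen, at 15.3 ± 1.1 and 40.2 ± 2.85 CPM, and the monocyte gene CD14 at 0.125 ± 0.105 and 0.124 ± 0.11 CPM (SD, n = 3 per group, STAT3 shRNA libraries first). COL1A1 fell (-1.40 on the log2 scale) and HNF4A rose (2.12) in the comparison (edgeR adjusted p = 5.16e-05 and 0.000407), and the part of either in the results that follow was not tested.

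Of the 47 members, 46 passed the filter on low counts and entered the test. The one left out was PSMB11, the catalytic subunit of the thymus proteasome, with 1, 0 and 0 counts in the STAT3 shRNA libraries and 0 in each control library, where 3 counts, the most that a count of 0 allows, stand for 0.158 to 0.175 CPM. In the account that follows, a positive log2 fold change means a higher level with STAT3 shRNA and carries its SE after ±, a mean level in CPM carries its SD (n = 3 per group), and a gene is called when its adjusted p over all tested genes (edgeR quasi-likelihood test, false discovery rate, FDR) is under 0.05. In bulk RNA, fewer cells with a transcript and less transcript per cell cannot be told apart.

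Within 0.5 of no change on the log2 scale lay 42 of 46 proteasome genes, a share that was not counted over all tested genes. The immunoproteasome subunit PSMB9 had the largest difference. Of the 46 tested members, 1 rose, which is 2.17% against 9.39% of all 14999 tested genes, and 6 fell, which is 13.0% against 8.13% of all tested genes. In either direction 15.2% of members were called, against a background of 17.5%. The log2 fold change was below 0 for 34 of 46 members, or 73.9%, against 50.9% of all tested genes, and its median was -0.17, against -0.01 over all tested genes. With library totals in place of composition scaling the members' median was -0.07 and that of all tested genes 0.09, so the level of both moved with the scaling. The groups did not overlap for 15 members that were lower with the STAT3 shRNA (32.6% of members, against 17.2% of all tested genes) and for 3 that were higher (6.52% against 18.5%).

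**Figure D1:**
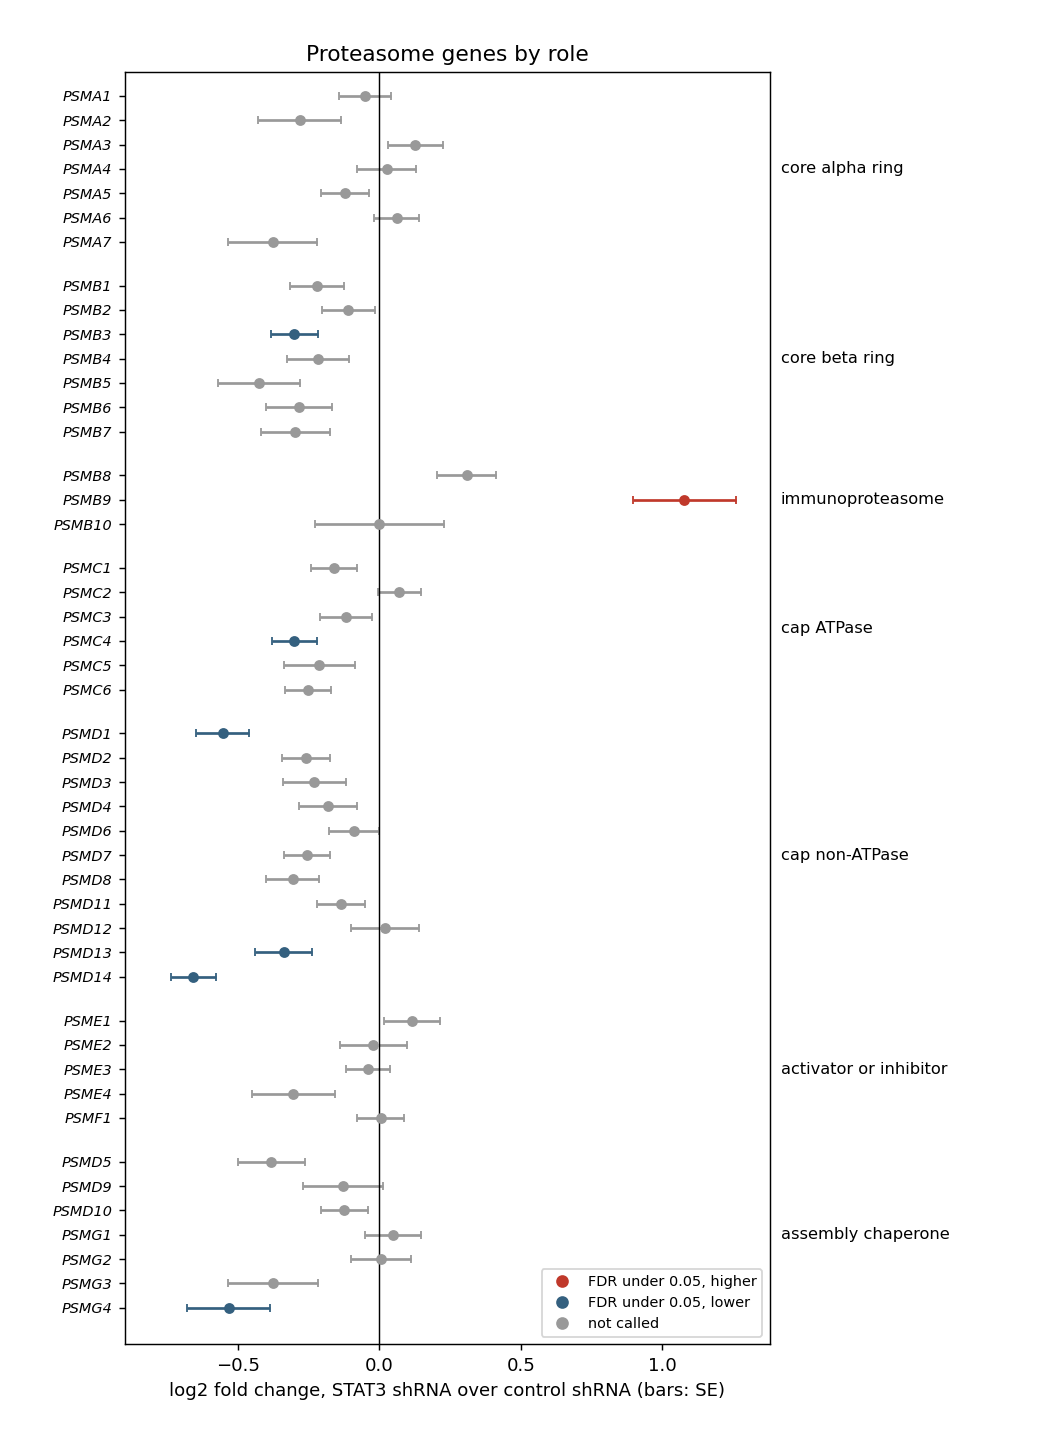
Log2 fold change of the 46 tested proteasome genes, STAT3 shRNA over control shRNA, with SE as bars (horizontal axis), grouped by role from top to bottom. PSMB9 stands alone on the right at 1.08, and the called lower genes reach -0.66 at PSMD14.

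The 6 members that fell were PSMD14, PSMD1 and PSMD13 of the non-ATPase cap, the cap ATPase PSMC4, the beta ring subunit PSMB3 and the assembly chaperone PSMG4. The calls differed in how they held when the processing was changed: PSMB9, PSMD14 and PSMD1 were called in all 12 alternative fits, while PSMG4 was called in 7, PSMD13 in 5, PSMC4 in 4 and PSMB3 in 3. The count of lower members was 16 without control library 1, 2 when control library 2 or STAT3 shRNA library 1 or 3 was dropped, 3 when STAT3 shRNA library 2 was dropped, and 12 by the DESeq2 Wald test. With upper-quartile scaling 3 members were lower, and with library totals 2. Over all genes, DESeq2 called 1445 lower, against 1219 in the main fit, and fits with 1 library left out called 666 to 2030 lower.

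The immunoproteasome subunits are made from genes on chromosome 6 (PSMB8 and PSMB9) and chromosome 16 (PSMB10). PSMB9, which replaces the caspase-like core subunit PSMB6, had 329, 270 and 224 counts in the STAT3 shRNA libraries, or 12.3, 13.2 and 12.2 CPM, and 83, 100 and 146 counts in the control libraries, or 4.84, 5.33 and 7.69 CPM. Every STAT3 shRNA library was above every control library, and control library 3 was the highest of the controls. PSMB9 (ENSG00000240065.8) rose 2.11-fold (log2 1.08 ± 0.182, edgeR adjusted p = 0.00348), and over the alternative fits the log2 value ranged from 0.96 to 1.31 with an adjusted p of at most 0.0257.

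PSMB8, the chymotrypsin-like subunit that takes the place of PSMB5, is the neighbour of PSMB9 and was far more abundant. It lay at 97.8, 115 and 108 CPM with STAT3 shRNA and at 77.4, 87.0 and 94.4 CPM with control shRNA, again without overlap. Its log2 fold change of 0.31 ± 0.104 did not pass (edgeR adjusted p = 0.0733), but it did under upper-quartile scaling (0.0404), under library totals (0.0213) and without control library 3 (0.0341). PSMB10, which replaces the trypsin-like PSMB7, lay at 19.3, 27.6 and 19.6 CPM with STAT3 shRNA and at 15.8, 21.1 and 29.4 CPM with control shRNA. The groups overlapped, the log2 fold change was 0.00 ± 0.229 (edgeR adjusted p = 0.999), and with 1 library left out it ranged from -0.19 to 0.27.

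**Figure D2:**
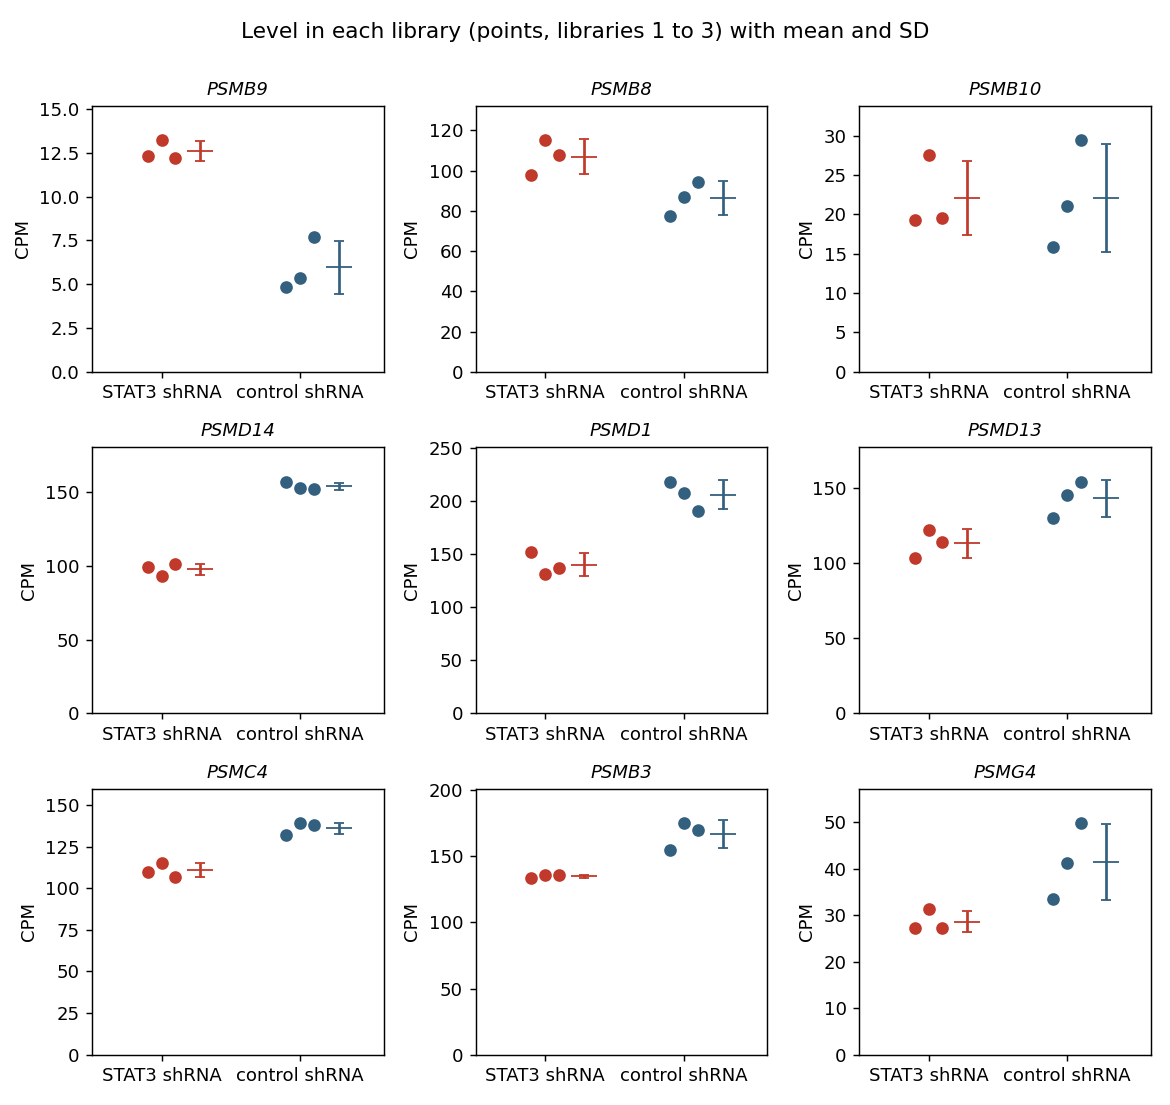
Level in CPM (vertical axis, from 0) of the immunoproteasome subunits and the 6 called lower genes in each library, STAT3 shRNA left and control shRNA right, with mean and SD beside the points. PSMB9 lies at 12.2 to 13.2 CPM against 4.84 to 7.69 CPM, PSMD14 at 93.2 to 101 CPM against 152 to 157 CPM, and PSMB10 overlaps.

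The genes of PSMB9 and PSMB8 lie on opposite strands of the MHC region beside the peptide transporter genes TAP1 and TAP2, and the windows around their starts are shown because PSMB9 was the one member that rose and PSMB8 is its nearest relative there. Each is the RefSeq promoter window of 250 bases before to 50 after an annotated start, 5′ to 3′ on the gene's strand in build GRCh38.p14. The PSMB9 window is chr6:32853942-32854241 on the plus strand. PSMB8 has windows at chr6:32844630-32844929 and chr6:32843998-32844297 on the minus strand. Capitals mark the motifs searched for, which are named after the sequences.
PSMB9: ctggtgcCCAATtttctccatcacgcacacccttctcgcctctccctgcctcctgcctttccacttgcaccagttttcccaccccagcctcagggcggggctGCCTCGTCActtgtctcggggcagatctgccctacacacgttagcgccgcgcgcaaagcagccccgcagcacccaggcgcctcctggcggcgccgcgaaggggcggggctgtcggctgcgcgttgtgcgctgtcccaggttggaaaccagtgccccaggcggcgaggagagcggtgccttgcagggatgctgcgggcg
PSMB8 first window: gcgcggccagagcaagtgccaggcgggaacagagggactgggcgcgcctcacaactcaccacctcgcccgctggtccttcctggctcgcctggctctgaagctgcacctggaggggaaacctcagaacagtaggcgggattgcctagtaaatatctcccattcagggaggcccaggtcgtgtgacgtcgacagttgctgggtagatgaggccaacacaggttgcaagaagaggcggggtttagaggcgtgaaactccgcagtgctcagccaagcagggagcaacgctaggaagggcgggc
PSMB8 second window: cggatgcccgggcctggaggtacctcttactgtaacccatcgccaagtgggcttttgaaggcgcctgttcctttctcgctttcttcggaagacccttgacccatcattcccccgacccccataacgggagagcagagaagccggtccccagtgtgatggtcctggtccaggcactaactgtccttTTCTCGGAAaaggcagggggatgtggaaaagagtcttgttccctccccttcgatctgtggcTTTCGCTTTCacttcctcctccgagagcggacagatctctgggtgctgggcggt

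The motifs searched on both strands were the STAT site TTCNNNGAA, the interferon response core (GAAA, any 2 bases, GAAA), the antioxidant response core TGACNNNGC, through which NFE2L1 acts on proteasome genes, and the CCAAT box. Their letters can overlap each other. The second PSMB8 window held a STAT site match, TTCTCGGAA, at bases 186 to 194 of the window and an interferon response match, GAAAGCGAAA on the other strand, at bases 247 to 256. The PSMB9 window held neither, but held an antioxidant response match on the other strand, TGACGAGGC, at bases 103 to 111 and a CCAAT box at bases 8 to 12. Of 50 windows of 41 members that matched the table, 7 held the STAT site, against 7.66% of all 35116 windows, and 7 the interferon response core, against 3.57% of all windows. The antioxidant response core was in 15 of the 50, against 13.3% of all windows, and the CCAAT box in 20, against 34.6%. A match of letters is a description and not a bound site.

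TAP1, which carries peptides into the endoplasmic reticulum, has an annotated start 488 bases from that of PSMB9 on the opposite strand, and it lay at 59.9, 74.8 and 60.2 CPM with STAT3 shRNA and at 59.9, 69.96 and 70.6 CPM with control shRNA. It did not pass the test (-0.04 ± 0.118, edgeR adjusted p = 0.849), nor did TAP2 (0.13 ± 0.0921, edgeR adjusted p = 0.391). Per length, PSMB9 was 73.0 ± 5.98% of TAP1 in the STAT3 shRNA libraries and 33.1 ± 6.63% in the control libraries (SD, n = 3 per group), without overlap, a ratio that no scaling of the libraries can move. The transcript PSMB8-AS1 overlaps PSMB8 on the opposite strand and PSMB9 on the same strand. It lay at 5.48 ± 0.226 and 3.41 ± 0.992 CPM (SD, n = 3 per group, STAT3 shRNA first). Its log2 fold change was 0.68 ± 0.232 (edgeR adjusted p = 0.0758). The annotated genes PSMB8 and PSMB9 also overlap on opposite strands, and so do TAP1 and PSMB9. Since the strand setting of the counts is not given, reads from the overlaps cannot be told apart. The effect of this on the ratio of PSMB9 to TAP1 was not tested. Strand alone would not separate PSMB8-AS1 reads from PSMB9 reads where these 2 overlap.

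None of the listed genes that induce the immunoproteasome or lie beside it was called by edgeR, where 17.5% of all tested genes were called. Outside that list, HLA-DMA, 2 tested genes from PSMB9, was called higher (0.85, edgeR adjusted p = 0.0454). Of the 40 tested neighbours of PSMB9 it was the 1 called higher, and 2 were called lower. The interferon factor IRF1 (0.14 ± 0.12, edgeR adjusted p = 0.470) did not pass, nor did NLRC5, the activator of MHC class I genes (-0.10 ± 0.0959). Of the list of 6 genes, 2 had an unadjusted p under 0.05, both below 0, and the median log2 fold change was -0.07. DESeq2 called 1 of the 6 lower, the peptide-loading gene TAPBP. The share of all tested genes with an unadjusted p under 0.05 was not counted.

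The core subunits that the immunoproteasome replaces all had lower means, and none passed. PSMB5, the chymotrypsin-like subunit, lay at 172, 202 and 169 CPM with STAT3 shRNA and at 189, 264 and 277 CPM with control shRNA (-0.43 ± 0.145, edgeR adjusted p = 0.0767). PSMB6, the caspase-like subunit, lay at 192, 187 and 175 CPM and at 191, 224 and 260 CPM (-0.28 ± 0.116, adjusted p = 0.130), STAT3 shRNA libraries first. PSMB7, the trypsin-like subunit, lay at 125, 151 and 130 CPM with STAT3 shRNA and at 140, 179 and 180 CPM with control shRNA (-0.30 ± 0.122, adjusted p = 0.132). Control library 1 was the lowest control for each, and without it all 3 passed. The edgeR adjusted p-values were then 0.00275 for PSMB5, 0.0158 for PSMB6 and 0.0165 for PSMB7. The fit without that library called 2030 genes lower over all genes, against 1219 in the main fit. DESeq2 (adjusted p = 0.0288) and the fit with no filter (0.0253) also called PSMB5.

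Within a library, the share of an immunoproteasome subunit relative to its counterpart does not depend on scaling. Per length, PSMB9 was 7.06%, 7.78% and 7.68% of PSMB6 in the STAT3 shRNA libraries and 2.79%, 2.62% and 3.25% in the control libraries, a ratio 2.61 times as high. PSMB8 was 54.4%, 54.3% and 61.3% of PSMB5 in the STAT3 shRNA libraries and 39.2%, 31.6% and 32.6% in the control libraries, 1.65 times as high. Both ratios separated the groups fully. PSMB10 was 12.4%, 14.7% and 12.1% of PSMB7 in the STAT3 shRNA libraries and 9.10%, 9.49% and 13.1% in the control libraries, and these overlapped. The ratios are descriptions and were given no test.

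**Figure D3:**
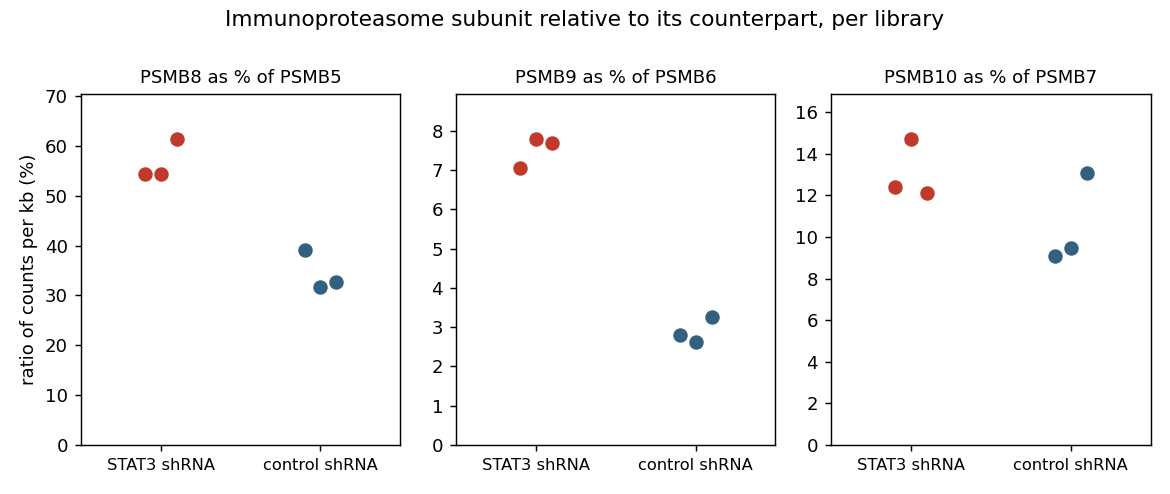
Ratio of each immunoproteasome subunit to the core subunit it replaces, as a percentage of counts per kb of transcript (vertical axis, from 0), per library, STAT3 shRNA left and control shRNA right. PSMB8 over PSMB5 and PSMB9 over PSMB6 separate the groups, and PSMB10 over PSMB7 does not.

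The alpha ring, which forms the gate of the core, held 7 tested subunits, PSMA1 to PSMA7. Of these, 0 were called by edgeR and 0 by DESeq2, and 1, PSMA7, had an unadjusted p under 0.05. Over all tested genes, edgeR called 17.5%. Their median log2 fold change was -0.05, with 4 below 0 and 3 above, and a range of -0.38 to 0.13. PSMA7, the alpha subunit with the highest level per length, lay at 243, 337 and 265 CPM with STAT3 shRNA and at 293, 381 and 424 CPM with control shRNA (-0.38 ± 0.158, edgeR adjusted p = 0.139). Its groups overlapped, and it passed only without control library 1 (-0.50, adjusted p = 0.0254). PSMA4 lay at 290 ± 33.3 CPM with STAT3 shRNA and 285 ± 19.7 CPM with control shRNA (SD, n = 3 per group), and its log2 value of 0.03 ± 0.105 did not pass (edgeR adjusted p = 0.897).

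In the beta ring, all 7 constitutive subunits had a log2 fold change below 0, with a median of -0.28 and a range of -0.43 to -0.11, and 1 fell. Over all tested genes, 50.9% were below 0 and 8.13% fell. Whether the rings differ was not tested. PSMB3, a subunit without a proteolytic site, lay at 134, 136 and 136 CPM with STAT3 shRNA and at 155, 175 and 170 CPM with control shRNA. The groups did not overlap, and the STAT3 shRNA libraries were almost identical to each other. PSMB3 fell by 0.30 on the log2 scale (SE 0.0829, edgeR adjusted p = 0.0361), a call that was kept only with RLE size factors, with DESeq2 and without control library 1, and whose adjusted p rose to 0.162 without control library 2. It also failed when control library 3 (0.0571) or STAT3 shRNA library 1 (0.154), 2 (0.0841) or 3 (0.131) was dropped. PSMB4 (-0.22 ± 0.109, edgeR adjusted p = 0.211), the most abundant beta subunit, and PSMB2 (-0.11 ± 0.0937, adjusted p = 0.463) did not pass, although PSMB4 did without control library 1 (0.0435).

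Levels per length differed widely within the core, although the assembled particle holds its subunits in equal numbers. On the scale of CPM per kb of the longest annotated coding transcript, alpha subunits ranged from 39.1 to 283 in the STAT3 shRNA libraries and from 42.5 to 367 in the control libraries, with PSMA5 lowest and PSMA7 highest in both. Beta subunits ranged from 48.9 to 281 and from 52.8 to 327, with PSMB2 lowest and PSMB4 highest, STAT3 shRNA libraries first. Among the immunoproteasome subunits PSMB8 reached 79.1 in the STAT3 shRNA libraries and 63.9 in the control libraries. PSMB10 lay at 18.2 and 18.1 and PSMB9 at 15.9 and 7.51, in the same order. In each ring of the core, the lowest value belonged to a gene with a long annotated form, PSMA5 (3729 bases) and PSMB2 (4217 bases). PSMA4 has a longer form (4411 bases) and lay at 65.8 and 64.7, STAT3 shRNA libraries first. The low PSMB9 (792 bases) and PSMB10 (1218 bases) have shorter forms. Which form these cells make was not measured.

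Of 17 tested cap subunits, 4 fell and 0 rose, where 8.13% of all tested genes fell and 9.39% rose. Of the 17, 15 were below 0, against 50.9% of all tested genes, and the median was -0.23. The lower genes with the lowest adjusted p among the members, PSMD14 and PSMD1, are cap subunits on chromosome 2 whose neighbours were also mostly lower, as described after their values. PSMD14, the deubiquitinase that cuts ubiquitin off the substrate, lay at 98.9, 93.2 and 101 CPM with STAT3 shRNA and at 157, 153 and 152 CPM with control shRNA. The gap between the groups was wider than the spread within them. PSMD14 (ENSG00000115233.12) fell by 0.66 on the log2 scale (SE 0.0801, edgeR adjusted p = 0.000588), a level 1.58 times lower, with values of -0.68 to -0.56 over the alternative fits.

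PSMD1, a large scaffold subunit at the base of the cap, lay at 152, 131 and 137 CPM with STAT3 shRNA and at 218, 208 and 191 CPM with control shRNA. The groups were again apart, and the spread within them was wider than for PSMD14. PSMD1 (ENSG00000173692.13) fell by 0.55 on the log2 scale (SE 0.0938, edgeR adjusted p = 0.00351), a level 1.47 times lower, and its adjusted p was at most 0.0281 in the alternative fits.

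PSMD1 and PSMD14 lie apart on chromosome 2, and most genes around each also had log2 fold changes below 0. Among the 40 tested genes nearest to PSMD1 in chromosome order, 20 on each side, 38 had a log2 fold change below 0, 24 were called lower and 0 higher, and the median was -0.67. Around PSMD14, 32 of 40 neighbours were below 0, 17 were called lower and 2 higher, and the median was -0.47. The fall of PSMD1 was thus smaller than the median of its neighbours, and that of PSMD14 was somewhat larger. Neighbours of PSMD1 include the nucleolar protein NCL (-0.63, FDR 0.000564) and PTMA, a chromatin protein (-0.58, FDR 0.00099), and neighbours of PSMD14 include the signalling adaptor TANK (-0.50, FDR 0.019) and the RNA-binding gene RBMS1 (-0.58, FDR 0.00422), all by edgeR and chosen after their values were seen. Around the other 44 tested members the window median ranged from -0.22 to 0.24, with at most 7 neighbours called lower and at most 12 called higher. PSMD13 lies near a chromosome end, with 24 tested neighbours. Its window had the lowest of these medians, -0.22, with 21 of 24 below 0 and 6 called lower. PSME4, the remaining member on chromosome 2, had a window median of 0.13. Without the 3 chromosome 2 members, 4 of 43 members were called lower, or 9.30%. The share over all tested genes, 8.13%, still includes chromosome 2, so these shares cover unlike sets of genes. The part of chromosomal position in the fall of PSMD1 and PSMD14 was not tested.

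**Figure D4:**
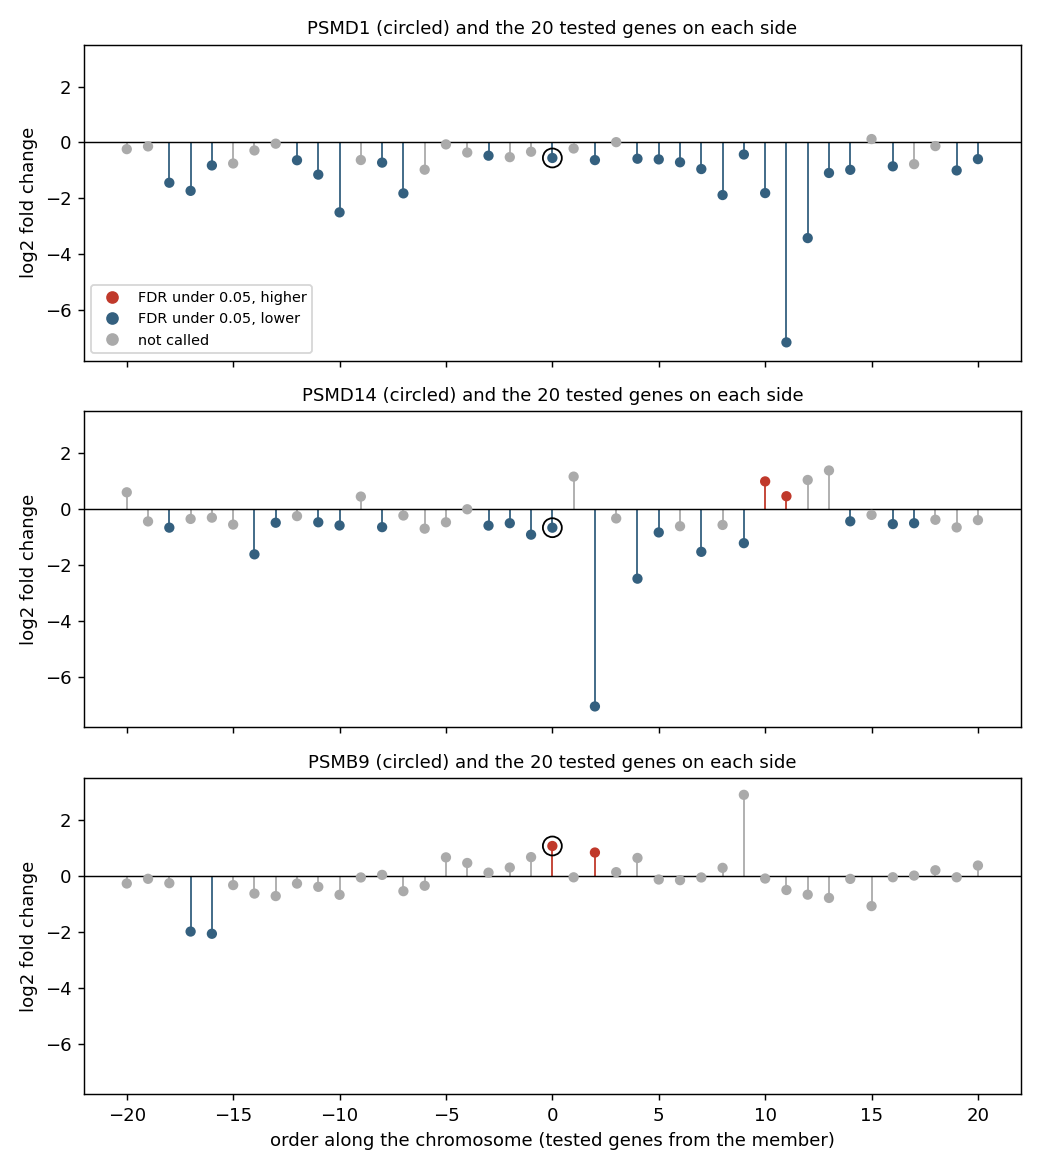
Log2 fold change, STAT3 shRNA over control shRNA (vertical axis), of PSMD1, PSMD14 and PSMB9 (circled) and of the tested genes on each side in chromosome order (horizontal axis, number of tested genes from the member), coloured by call. Most neighbours of PSMD1 (38 of 40) and PSMD14 (32 of 40) lie below 0. Those of PSMB9 lie on both sides, with 26 of 40 below 0, 1 called higher and 2 called lower.

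The windows around the starts of PSMD14 and PSMD1 are shown because these were the lower members called in every alternative fit. They are chr2:161308175-161308474 and chr2:231056617-231056916, both on the plus strand, 5′ to 3′, from RefSeq in build GRCh38.p14, with the same motifs in capitals. PSMD14 holds 2 CCAAT boxes on opposite strands that share bases, at 203 to 207 and 206 to 210 of the window, and PSMD1 an antioxidant response match, TGACTGAGC, at bases 290 to 298. They have no motif of the search in common.
PSMD14: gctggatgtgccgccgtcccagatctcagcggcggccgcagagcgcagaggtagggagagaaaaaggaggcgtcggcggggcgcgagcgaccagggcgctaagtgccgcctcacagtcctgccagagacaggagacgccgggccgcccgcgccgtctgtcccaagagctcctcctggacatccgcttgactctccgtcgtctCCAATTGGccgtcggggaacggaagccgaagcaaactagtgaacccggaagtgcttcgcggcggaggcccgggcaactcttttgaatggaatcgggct
PSMD1: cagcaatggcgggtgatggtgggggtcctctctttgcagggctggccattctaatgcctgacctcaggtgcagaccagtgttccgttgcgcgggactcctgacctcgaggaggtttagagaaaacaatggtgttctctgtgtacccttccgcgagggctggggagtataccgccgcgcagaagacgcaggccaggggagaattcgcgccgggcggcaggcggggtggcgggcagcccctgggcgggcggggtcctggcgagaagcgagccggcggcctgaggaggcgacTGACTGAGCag

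PSMD13, a subunit of the lid of the cap, lay at 103, 122 and 114 CPM with STAT3 shRNA and at 130, 145 and 154 CPM with control shRNA. It fell by 0.34 on the log2 scale (SE 0.101, edgeR adjusted p = 0.0489), just inside the threshold. The call was lost under upper-quartile scaling (0.0852), under library totals (0.127) and when control library 2 (0.160) or 3 (0.104) or STAT3 shRNA library 1 (0.214), 2 (0.0533) or 3 (0.153) was dropped. PSMC4, an ATPase of the unfolding ring, lay at 110, 115 and 107 CPM with STAT3 shRNA and at 132, 139 and 138 CPM with control shRNA, with no overlap. It fell by 0.30 on the log2 scale (SE 0.08, edgeR adjusted p = 0.0308). Among the fits that lost its call were those without control library 2 (0.132) or any one STAT3 shRNA library (0.135, 0.0583 and 0.145 for 1, 2 and 3), and those with upper-quartile scaling (0.0611), library totals (0.115) or no filter (0.0612).

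The other cap subunits did not pass by edgeR, although DESeq2 called 2 of the 6 ATPases and 6 of the 11 non-ATPase subunits lower. Over all genes, DESeq2 called 1445 lower and 1373 higher. Beyond the called genes and PSMD2, those were PSMC6, PSMD7 and PSMD8, with log2 fold changes of -0.25 ± 0.0819, -0.26 ± 0.0823 and -0.31 ± 0.0941 (edgeR adjusted p = 0.0647, 0.0633 and 0.0534). In edgeR without control library 1, PSMD8 and PSMD3 were called lower. PSMD2, the cap gene with the highest CPM, which docks ubiquitin carriers, lay at 421, 457 and 417 CPM with STAT3 shRNA and at 480, 530 and 539 CPM with control shRNA. These did not overlap either (-0.26 ± 0.0852, edgeR adjusted p = 0.0688), and it passed by DESeq2 (0.0361) and without control library 1 (0.0308). PSMD11, a lid scaffold, stood at 236 ± 6.87 and 259 ± 17.9 CPM (SD, n = 3 per group, STAT3 shRNA first; -0.13 ± 0.0846, edgeR adjusted p = 0.315). Among the ATPases, PSMC2 (0.07 ± 0.0766, adjusted p = 0.567) and PSMC3 (-0.12 ± 0.0923, adjusted p = 0.421) had the smallest changes. Just outside the threshold lay 7 members with an edgeR adjusted p between 0.05 and 0.1, 6 of them lower. Of the 39 members not called, 12 had an unadjusted p under 0.05, 11 of them lower. The shares of all tested genes in these ranges were not counted, so no excess can be read from these counts.

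Of the 5 other activators and inhibitors, 0 were called by edgeR, 0 by DESeq2, and 0 had an unadjusted p under 0.05. Over all tested genes, edgeR called 17.5%. PSME1 and PSME2, the interferon-inducible pair that opens the core gate, lay at 117 ± 7.06 and 102 ± 5.94 CPM with STAT3 shRNA and at 108 ± 10.5 and 104 ± 16.3 CPM with control shRNA (SD, n = 3 per group). Their log2 fold changes were 0.12 ± 0.099 and -0.02 ± 0.119, and whether they differ from PSMB9 was not tested. PSME3, their nuclear relative, was at 219 ± 7.09 CPM with STAT3 shRNA and 225 ± 7.02 CPM with control shRNA (-0.04 ± 0.0779). PSMF1, which inhibits the core in purified systems, was at 89.5 ± 4.43 and 89.2 ± 1.5 CPM in the same order (0.00 ± 0.0816). PSME4, a nuclear activator, lay at 98.5, 87.8 and 101 CPM with STAT3 shRNA and at 146, 115 and 94.8 CPM with control shRNA. Its control libraries differed more than the groups did (-0.30 ± 0.148, edgeR adjusted p = 0.197), and without control library 3 it passed (-0.44, adjusted p = 0.0338).

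Of the 7 assembly chaperones, 1 fell and 0 rose, where 8.13% of all tested genes fell and 9.39% rose. PSMG1 and PSMG2 form a pair that builds the alpha ring, and had log2 fold changes of 0.05 ± 0.0995 and 0.01 ± 0.106. PSMG3 and PSMG4 form the other pair for the same ring, and both were lower in mean. PSMG4 lay at 27.3, 31.2 and 27.3 CPM with STAT3 shRNA and at 33.4, 41.1 and 49.7 CPM with control shRNA, and PSMG3 at 46.3, 54.3 and 49.0 CPM and at 50.5, 62.5 and 80.8 CPM, STAT3 shRNA first. PSMG4 fell by 0.53 on the log2 scale (SE 0.146, edgeR adjusted p = 0.035), and PSMG3 did not pass (-0.38 ± 0.16, adjusted p = 0.145). The PSMG4 groups did not overlap but the control libraries spread widely, and the call was lost with library totals (0.0597) and when control library 2 (0.110) or 3 (0.0749) or STAT3 shRNA library 1 (0.140) or 3 (0.138) was dropped. Without control library 1, PSMG3 passed as well (-0.51, adjusted p = 0.0132).

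Chaperones of the cap base did not pass. PSMD5 lay at 70.9, 57.4 and 73.4 CPM with STAT3 shRNA and at 97.6, 83.1 and 82.3 CPM with control shRNA, without overlap (-0.38 ± 0.119, edgeR adjusted p = 0.0561). It passed by DESeq2 (0.0231), with no filter (0.0215) and without control library 3 (0.0471). PSMD9 was at 49.7 ± 1.66 and 54.3 ± 11.1 CPM, and PSMD10, also known as gankyrin, at 67.7 ± 3.52 and 73.7 ± 0.817 CPM (SD, n = 3 per group, STAT3 shRNA first). Their log2 fold changes were -0.13 ± 0.142 and -0.12 ± 0.0843.

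Summed over all 47 members, proteasome transcripts made up 6421, 6597 and 6521 CPM with STAT3 shRNA and 7000, 7462 and 7698 CPM with control shRNA. The sums did not overlap, and the control libraries were spread more widely. The alpha ring summed to 1403 ± 38.3 and 1512 ± 59.7 CPM, the constitutive beta ring to 1238 ± 36.8 and 1484 ± 153 CPM, and the cap to 2702 ± 51.6 and 3171 ± 117 CPM (SD, n = 3 per group, STAT3 shRNA first). The immunoproteasome genes summed to 129.5, 155.5 and 140 CPM with STAT3 shRNA and 98.05, 113.4 and 131.4 CPM with control shRNA, and these overlapped.

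Libraries of one group differed over many members at once. Control library 1 was the lowest control for 27 of 46 members and control library 3 the highest for 25, and the median deviation from the group mean was -0.08 and 0.07 on the log2 scale. The deviation went with transcript length: across the 46 members, Spearman's rho between deviation and length was 0.50 in control library 1 and -0.49 in control library 3. In the STAT3 shRNA libraries rho was 0.30, -0.41 and 0.37 for libraries 1, 2 and 3. These genes share their libraries and are not independent, so the values are descriptions. Across the same members, length and the log2 fold change between groups had a rho of -0.07. Over the 12251 tested genes with a length, that rho was 0.126. The part of this length trend in the calls was not tested.

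**Figure D5:**
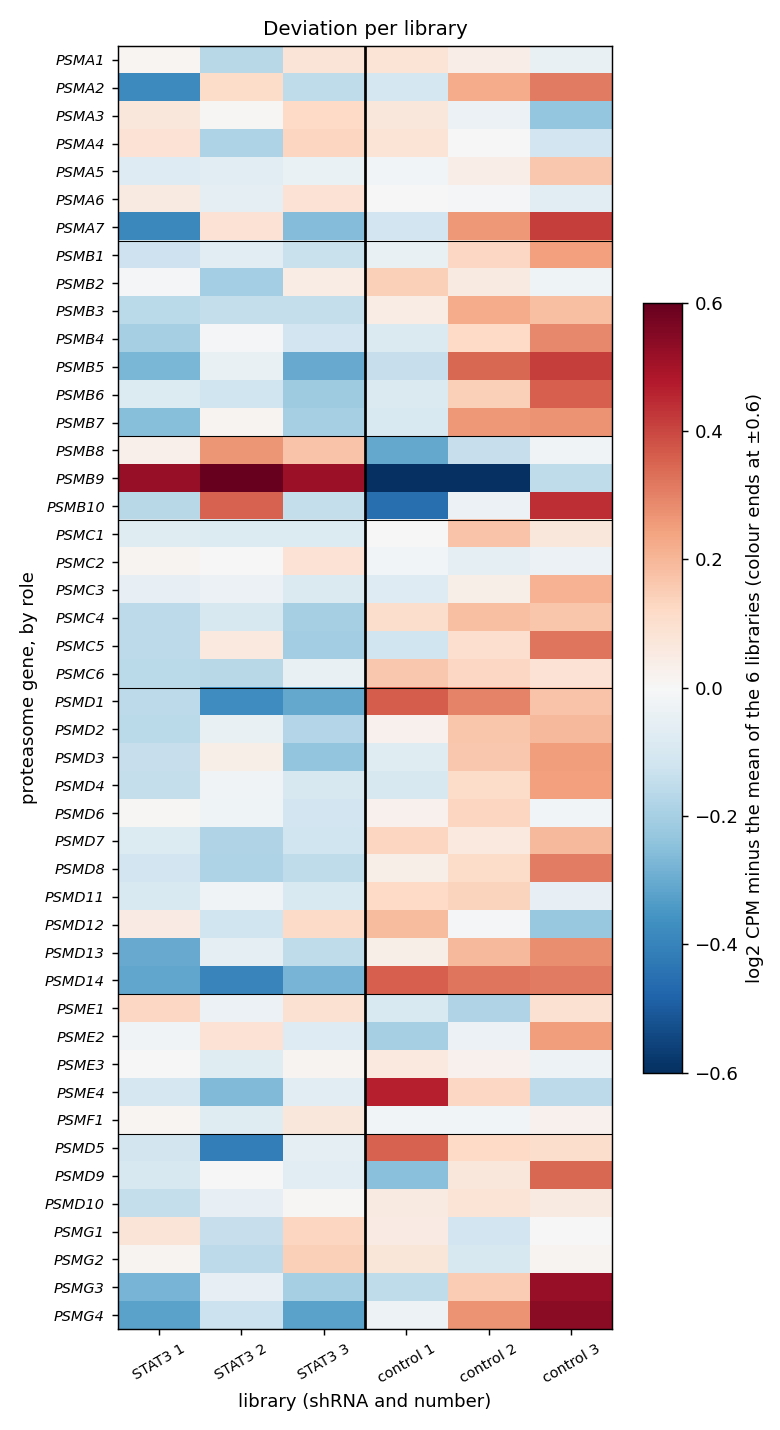
Log2 CPM minus the mean of the 6 libraries (colour, ending at ±0.6) for each tested proteasome gene (rows, by role) in each library (columns), STAT3 shRNA left and control shRNA right of the black line. Most beta ring and cap genes are red in control libraries 2 and 3 and many are pale or blue in control library 1, while PSMD1 and PSMD14 are red in all 3 and PSMB9 is blue in all 3.

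Proteasome partners outside the PSM names were mostly not called. Of 14 further subunits and associated genes, 1 was called lower and 0 higher, with a median of -0.03. Over all tested genes, edgeR called 8.13% lower and 9.39% higher. The called gene was UBE3C, a ubiquitin ligase bound to the proteasome, which lay at 180, 172 and 184 CPM with STAT3 shRNA and at 237, 223 and 202 CPM with control shRNA (-0.31 ± 0.0884, edgeR adjusted p = 0.0423). Among the fits that lost its call were those without any one of the libraries except control library 3, with adjusted p-values of 0.0625 to 0.149, and those with upper-quartile scaling (0.0856), library totals (0.163) or no filter (0.0569). Of 16 genes for ubiquitin, its shuttles and the unfolding ATPase VCP, edgeR called 0 in either direction and DESeq2 called 1 lower. Their median log2 fold change was -0.10, and 4 had an unadjusted p under 0.05, a share not counted over all tested genes. The polyubiquitin gene UBB did not pass (0.09 ± 0.0829, edgeR adjusted p = 0.518).

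Among 5 regulators of proteasome gene expression, 1 was called lower and 0 higher by edgeR, where 8.13% of all tested genes were lower and 9.39% higher, and the median log2 fold change was -0.24. DESeq2 called 2 of the 5 lower, DDI2 and NFE2L2, and 3 had an unadjusted p under 0.05, a share not counted over all tested genes. NFE2L2, the stress factor related to NFE2L1, lay at 131, 96.7 and 131 CPM with STAT3 shRNA and at 196, 161 and 136 CPM with control shRNA, without overlap (-0.46 ± 0.159, edgeR adjusted p = 0.0816). NRDC, a protease, also had groups that did not overlap (-0.24 ± 0.0866, adjusted p = 0.0895). NFE2L1, the transcription factor that raises proteasome genes when the proteasome is inhibited, was at 190, 204 and 177 CPM with STAT3 shRNA and at 170, 184 and 203 CPM with control shRNA (0.04 ± 0.0973, edgeR adjusted p = 0.831). DDI2, the protease that releases NFE2L1 from the endoplasmic reticulum, lay at 52.1, 51.2 and 54.7 CPM with STAT3 shRNA and at 87.3, 82.5 and 69.8 CPM with control shRNA. It fell by 0.60 on the log2 scale (SE 0.104, edgeR adjusted p = 0.00401). DDI2 also lies among lower genes: of its 40 tested neighbours on chromosome 1, 32 were below 0, 22 were called lower and 3 higher, with a median of -0.56. NGLY1, which removes sugars from NFE2L1, had a log2 fold change of 0.10 ± 0.11.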

How the data were processed

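RNA sequencing libraries of 3 STAT3 shRNA and 3 control shRNA samples were compared, grouped by their titles. The authors deposited raw counts per gene, whole numbers in 1 table. Which aligner, annotation, genome build and strand setting were used is not given in the sources used here. Libraries held 17408543 to 25862027 counts. A count of 0 allows 3 counts, or 0.113 to 0.175 CPM, covering counting error only.

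From the deposited counts, edgeR 4.0.16 in R 4.3.3 (TMM factors, quasi-likelihood F test, robust) was fitted to the 14999 genes that passed filterByExpr with a minimum count of 10, with Benjamini-Hochberg adjustment over all of them and a threshold of 0.05. CPM use the TMM-scaled totals. The alternatives were RLE, upper-quartile and library-total scaling, no low-count filter, a replicate block, DESeq2 1.42.0 and each library left out. Gene order, overlaps and the length of the longest coding transcript came from GENCODE 29 (47 of 47 members matched by ID), and promoter windows from RefSeq, GRCh38.p14. Only order and length were taken from GENCODE, since the build of the counts is unknown. The fit was checked on simulated counts.

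The members and lists were chosen with earlier results of these data known. Named genes were STAT3, every called member, the catalytic and immunoproteasome subunits, all activators, inhibitors and assembly genes, the 2 members with the highest mean CPM of each other class, and the called or most abundant genes of each pathway list. Other genes with values were named after their values were seen. PSMA8 was not analysed here. Some genes of the pathway lists are not reported here.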

Additional observations from a re-analysis of the deposited data

How the results depend on the processing

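Of the proteasome results, the rise of PSMB9 and the falls of PSMD14 and PSMD1 were called in all 12 alternatives. Upper-quartile scaling gave 2 members higher, 3 lower and a median of -0.118, and library totals gave 2, 2 and -0.0739. The median of all tested genes was 0.0462 and 0.0889 under these scalings, against -0.00671 with TMM. They called 1661 genes higher and 1006 lower, and 1911 higher and 874 lower, against 1408 and 1219 with TMM. DESeq2 called 12 members lower, and over all genes it called 1445 lower and 1373 higher. With 1 library left out, the members called ranged from 1 to 2 higher and from 2 to 16 lower, their median from -0.205 to -0.132, and all genes called from 1462 to 4098 (796 to 2068 higher, 666 to 2030 lower). The cause of these moves was not tested.

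Whether the numbers of the libraries pair them is not stated by the labels. Same-numbered libraries had correlations of deviations of 0.279, 0.191 and -0.227, and not every library correlated best with its own number. Deviations within so small a group are tied to each other, so these correlations cannot decide whether the libraries are paired. With the replicate block, 1 member was higher and 4 lower, the median was -0.167, and 2278 genes were called. PSMB3, PSMC4 and UBE3C were not called under the block (edgeR adjusted p = 0.0647, 0.0628 and 0.071). Genes with few counts, such as PSMB11, are limited by depth.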
